A study of Mus musculus with 8 samples.

Results

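The interleukins, their receptors and tumour necrosis factor (Tnf) with its 2 receptors were read in the olfactory bulb of mice that had inhaled diesel exhaust (DE) or clean air after rearing with or without environmental enrichment. The genes were taken from the array by name, as every noncontrol gene whose symbol begins with Il and a digit, plus Tnf, Tnfrsf1a and Tnfrsf1b. This gave 86 of the 34797 gene names on the array, measured by 110 probes on 165 spots per array. C-C mice were reared in standard cages and breathed clean air, C-DE mice had the same cages and inhaled DE, EE-C mice had enriched cages and clean air, and EE-DE mice had enriched cages and DE. Enriched cages were larger, held a running wheel, a shelter, blocks and tubes, and housed a dam with its pups until weaning. After weaning the offspring moved to the chambers and, per the paper, kept the housing they had been reared in. Exposure to 90 µg/m3 DE ran 8 h a day on postnatal days 28 to 55, 28 days in all. All were male C57BL/6J mice, sampled at 56 days of age. Pools were made from the RNA of 7 mice in C-C, 7 mice in C-DE, 8 mice in EE-C and 9 mice in EE-DE, and each pool was put on 2 one-colour arrays. Within a group each mouse came from a different litter, but all came from 7 standard and 9 enriched rearing cages, so the exposed and clean-air pools of one rearing environment shared cages. Each group is therefore 1 sample whose duplicate arrays show technical spread alone, and neither exposure nor rearing could be tested.

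Interleukins are small secreted proteins by which immune, glial and endothelial cells signal to one another, and Tnf is an inflammatory cytokine of another family. They act through receptors of 2 or more chains, several of which are shared within a family, such as the common gamma chain (Il2rg), the common beta chain and gp130 (Il6st). Most inflammatory ligands are kept low in resting tissue and are induced on demand, while many receptor chains are present on resting cells. The olfactory bulb receives the axons of the nasal olfactory neurons and is the brain region closest to inhaled material.

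A level is the log2 of a probe's processed signal minus the log2 of the 75th percentile of the noncontrol spots on that array, so that 0 is the brightness of that percentile. Levels of different probes are not compared, since probes differ in how well they bind. A difference such as C-DE minus C-C is taken between the mean log2 levels of the 2 pools, and the values in parentheses are its lowest and highest over the 4 ways to pair their arrays. A probe was called changed at 1.5-fold, or 0.585 on the log2 scale. The 75th percentile lay between 644 and 716 intensity units. Of the noncontrol spots, 68.0% to 70.6% were well above background on 7 arrays. The first EE-DE array had 56.7%, and the dimmest spot well above background read 27.35 units there but 8.45 to 10.74 elsewhere. The 8 arrays shared 1 slide and 1 scan. One column of the slide held the standard-cage pools and the other column the enriched pools, so rearing and slide column cannot be told apart. Rows 1 and 2 held the unexposed pools and rows 3 and 4 the exposed ones, so exposure and slide row cannot be told apart either. As to the tissue, all 12 marker genes of bulb neurons, 15 of microglia, 8 of astrocytes, 9 of oligodendrocytes and 8 of brain endothelium were detected on all 8 arrays. Of the lymphoid and mast cell lists, 3 of 7 T cell genes on the array, 2 of 5 B cell genes and 2 of 6 mast cell and basophil genes were. Markers of tissue outside the bulb were detected as well. On all 8 arrays were 8 of 8 neutrophil and marrow genes and 9 of 9 genes of olfactory mucosa supporting cells. So were 8 of 9 olfactory sensory neuron genes and 5 of 6 bone genes. Which tissue a detected interleukin gene came from was not tested.

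Detection divided the family by role. A probe was taken as detected on an array when more than 50% of its spots were well above background, and a gene through its best probe. Of the 86 genes, 41 were detected on all 8 arrays (47.7%), 18 on some and 27 on none. Over all gene names of the array 62.4% were detected on all 8, and over the 24511 names with an accession probe 67.6% were. Receptor chains were detected on all 8 arrays for 26 of 40 genes (65.0%) and on none for 3, Il18rap, Il1rl2 and Il23r. Ligands were detected on all 8 for 12 of 39 (30.8%) and on none for 21. Of the 6 soluble or decoy inhibitors, Il13ra2 and Il18bp were detected on all 8, Il1rn on 1 array and Il1f5, Il1r2 and Il22ra2 on none. The enzyme Il4i1, an amino acid oxidase, was detected on all 8. In bulk tissue a low signal can mean fewer cells of a type or less RNA per cell, and these cannot be told apart.

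**Figure D1:**
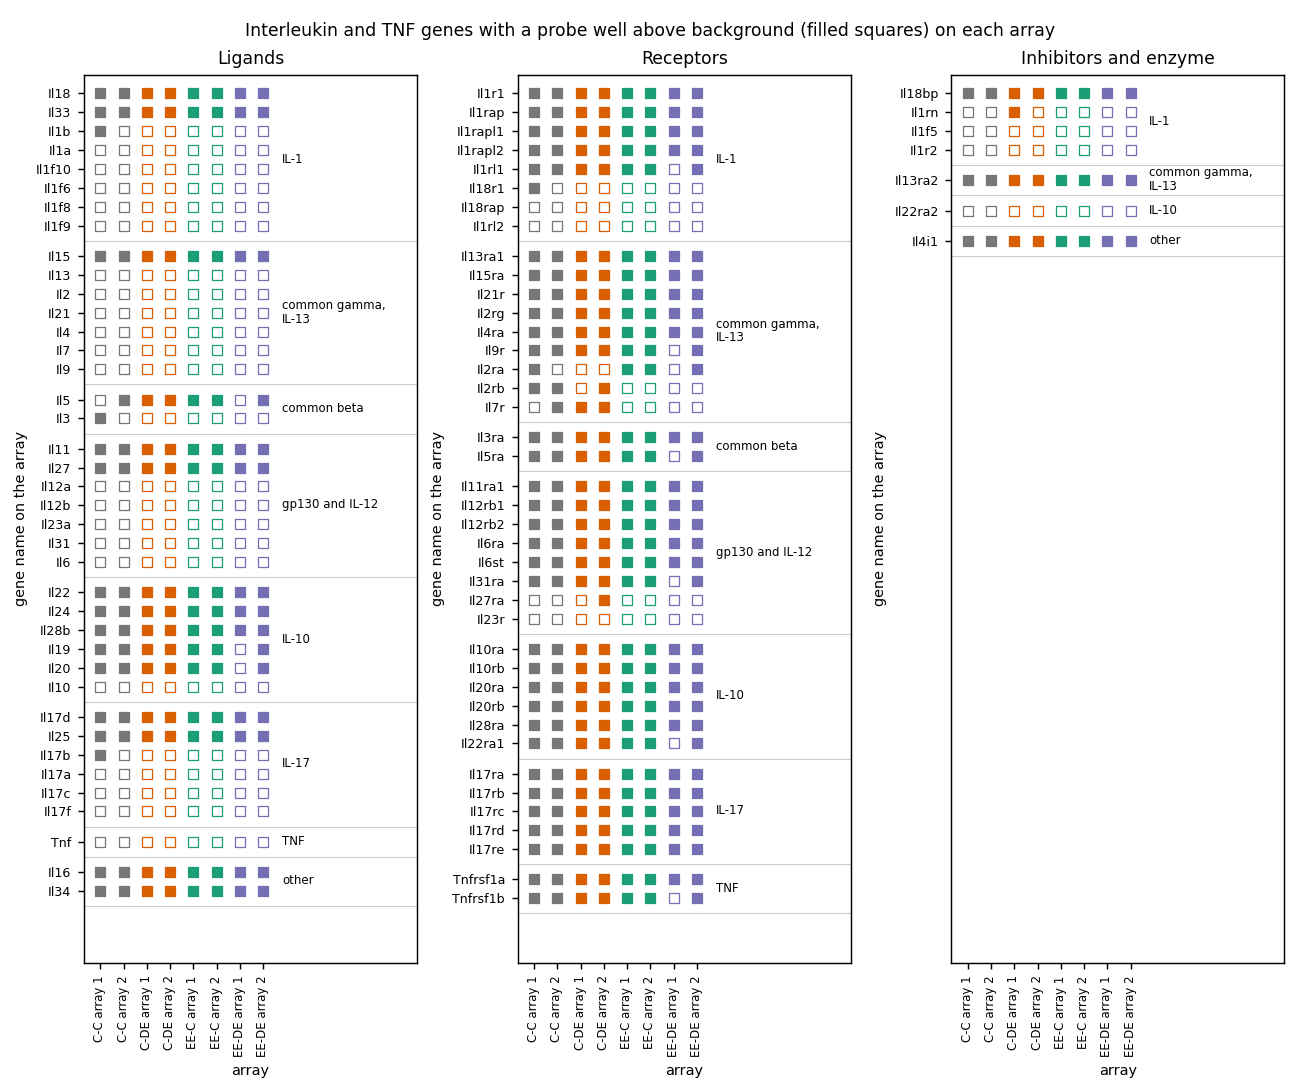
Detection of each of the 86 genes (rows, by role and receptor family) on each of the 8 arrays (columns, coloured by pool). Filled squares mark a gene with a probe well above background. Receptors are filled on all 8 arrays for 26 of 40 genes and ligands for 12 of 39, and the first EE-DE array has the most open squares.

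The ligands found on every array were Il11, Il15, Il16, Il17d, Il18, Il22, Il24, Il25, Il27, Il28b, Il33 and Il34. Those detected on some arrays were Il17b, Il19, Il1b, Il20, Il3 and Il5. The ligands not detected on any array by the rule above included the inflammatory Il1a, Il6 and Tnf, the regulatory Il10, the T helper cytokines Il4, Il13, Il17a, Il17f and Il21, the T cell growth factors Il2, Il7 and Il9, the IL-12 family subunits Il12a, Il12b and Il23a, and Il17c and Il31. Single spots of some of these were well above background, as given below. The remaining 4 were Il1f6, Il1f8, Il1f9 and Il1f10, which are the array's names for the genes of IL-36 alpha, beta and gamma and of IL-38. These are mainly cytokines of epithelia.

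By receptor family, all 5 IL-17 receptor genes (Il17ra, Il17rb, Il17rc, Il17rd and Il17re) were detected on every array, while of the 6 IL-17 ligands Il17d and Il25 were, Il17b was on 1 array and Il17a, Il17c and Il17f on none. In the common gamma family, counted with the related Il13, Il15 alone of 7 ligands was detected on every array, together with 5 of 9 receptor chains. In the IL-10 family, 5 of 6 receptor chains and the ligands Il22, Il24 and Il28b were. For the common beta family, whose cytokines act on eosinophils and other myeloid cells, only Il3ra of the genes taken by name was detected on every array. The common beta chain itself, Csf2rb, has no Il name and was also detected on every array. In the IL-1 family, 4 of 8 receptors and 2 of 8 ligands were.

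Some ligands and receptors of a pair were detected unequally. Il18, an inflammatory cytokine of macrophages and microglia, and its soluble inhibitor Il18bp were detected on every array, whereas its receptor chain Il18r1 was detected on 1 array and Il18rap on none. Il33, an alarmin released from damaged glia and barrier cells, was detected on every array, and its receptor Il1rl1 on 7 arrays by 1 of its 3 probes. For Il6 the reverse held, with the ligand on no array and both chains of its receptor, Il6ra and Il6st, on all 8. Likewise Tnf was on no array and Tnfrsf1a, the receptor present on most cells, on all 8. Il34, a neuronal growth factor for microglia, was detected on every array together with its receptors Csf1r and Ptprz1.

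Neighbouring genes on a chromosome were not detected alike. Of the 6 IL-1 receptor genes on chromosome 1 between 40180014 and 40605788 (mm9, positions of the probes), Il1r1 was detected on all 8 arrays, Il1rl1 and Il18r1 on some and Il1r2, Il1rl2 and Il18rap on none. Among Il24, Il20, Il19 and Il10, also on chromosome 1, between 132782338 and 132921002, Il24 was detected on all 8 and Il10 on none. The T helper cytokines Il4, Il13 and Il5 on chromosome 11, between 53426076 and 53538527, had Il5 alone on some arrays. In the 6 IL-1 family genes on chromosome 2 between 24015564 and 24205153, the inhibitor Il1rn was detected on 1 array and the others on none.

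The promoters of ligands and receptors differed in TATAAA and CpG content. RefSeq windows of 300 bases (GRCm38.p6, 250 before the start of transcription and 50 after) were at hand for 69 of the 86 genes and 27025 genes in all. A gene was counted for a motif when any of its windows held it on either strand, and for CpG dinucleotides by its richest window. The letters TATAAA, the core of the TATA box found in many inducible genes, occurred in 11 of 29 ligand genes (37.9%) and in 1 of 34 receptor genes (2.94%), Il1rl2, against 15.7% of all genes. None of the 22 receptors detected on all 8 arrays held it. These had a median of 14.5 CpG dinucleotides, against 5.0 in the 9 receptors detected on some arrays and 3.0 in the 3 detected on none. For ligands the medians were 6.0, 4.0 and 3.0, with 7, 5 and 17 genes, and 8.0 was the median of all genes listed. A kappaB-like sequence (GGG, any 2 bases, then TTTCC), which matches one form of the NF-kappaB site, occurred in 7 of the 69 genes (10.1%) against 1.89% of all genes. It was found in 3 of 29 ligands (10.3%), Il6, Il9 and Il16, and in 3 of 34 receptors (8.82%), Il4ra, Il17rc and Il23r. The motifs were searched and counted separately, whether or not they overlapped, and a match shows letters only and no bound factor.

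The 250 bases upstream of the start are shown for 3 ligands and 2 receptor chains of the same pathways. In the ligands Tnf (chr17:35202008-35202257, minus strand), Il1b (chr2:129371140-129371389, minus strand) and Il6 (chr5:30012864-30013113, plus strand), capitals mark TATAAA or the kappaB-like sequence. TATAAA begins 29 bases before the start in Tnf and 31 before it in Il1b, and the kappaB-like match begins 44 before it in Il6. In the receptor chains Il6st (chr13:112463820-112464069, plus strand) and Tnfrsf1a (chr6:125349473-125349722, plus strand), which hold neither motif, capitals mark CpG dinucleotides, 26 in Il6st and 9 in Tnfrsf1a. Il1b and Il6 have 2 and 3 and Tnf has 10.
Tnf: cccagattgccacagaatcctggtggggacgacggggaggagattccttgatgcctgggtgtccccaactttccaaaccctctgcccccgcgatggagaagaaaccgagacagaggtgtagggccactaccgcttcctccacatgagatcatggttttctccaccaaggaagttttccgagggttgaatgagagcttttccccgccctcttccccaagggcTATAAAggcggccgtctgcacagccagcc
Il1b: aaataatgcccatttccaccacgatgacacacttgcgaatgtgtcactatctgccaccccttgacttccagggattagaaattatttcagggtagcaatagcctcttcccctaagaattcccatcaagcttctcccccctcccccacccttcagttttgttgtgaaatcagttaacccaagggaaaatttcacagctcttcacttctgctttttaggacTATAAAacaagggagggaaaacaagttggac
Il6: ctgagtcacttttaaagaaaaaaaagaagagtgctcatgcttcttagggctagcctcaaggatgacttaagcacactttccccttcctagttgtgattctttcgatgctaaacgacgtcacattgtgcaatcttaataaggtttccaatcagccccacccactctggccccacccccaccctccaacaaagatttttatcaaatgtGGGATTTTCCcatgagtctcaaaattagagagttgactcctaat
Il6st: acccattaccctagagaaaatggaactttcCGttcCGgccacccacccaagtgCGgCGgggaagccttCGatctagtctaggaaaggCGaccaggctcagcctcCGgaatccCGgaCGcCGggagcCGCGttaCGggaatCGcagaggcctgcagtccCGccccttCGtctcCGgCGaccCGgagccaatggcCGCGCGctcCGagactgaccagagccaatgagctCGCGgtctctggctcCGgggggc
Tnfrsf1a: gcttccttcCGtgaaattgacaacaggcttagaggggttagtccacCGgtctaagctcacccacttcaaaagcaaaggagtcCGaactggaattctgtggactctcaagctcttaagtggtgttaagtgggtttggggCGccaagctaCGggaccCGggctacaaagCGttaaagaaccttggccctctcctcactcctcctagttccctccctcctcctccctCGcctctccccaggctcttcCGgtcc

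**Figure D2:**
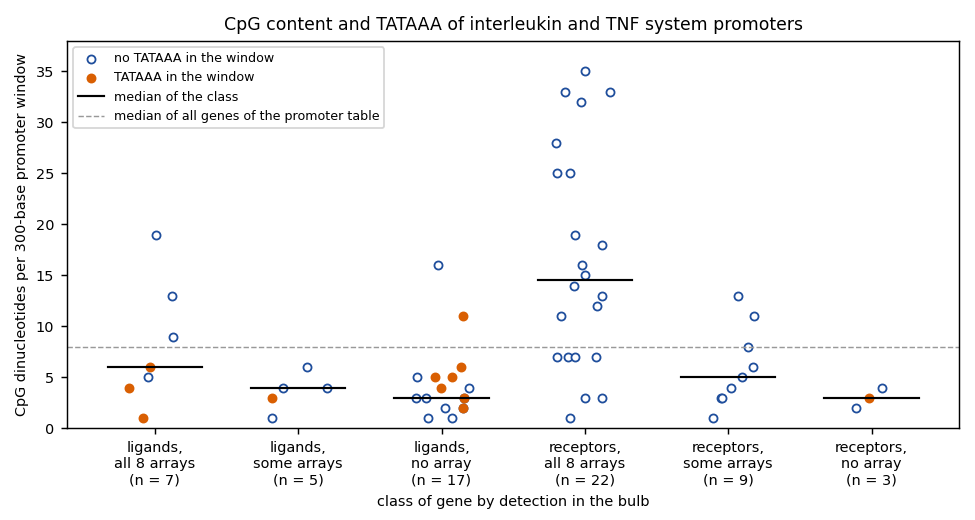
CpG dinucleotides per 300-base promoter window (vertical axis) for ligand and receptor genes with a RefSeq window, divided by detection in the bulb. Filled orange points hold TATAAA, black bars are medians and the dashed line is the median of 8.0 over all genes of the table. Detected receptors spread up to 35 with a median of 14.5 and no filled point, while the ligands on no array have a median of 3.0.

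A closer reading of the inflammatory ligands was possible because 6 genes were printed as 10 spots of 1 probe, which gave 80 spot values over the 8 arrays. For Tnf, 2 of 80 spot values were well above background, both in C-DE. The counts were 4 of 80 for Il10, 2 for Il12b and 1 for Il4. Il1b, a central inflammatory cytokine of microglia and macrophages, reached 24 of 80, with 8 of 20 in either standard-cage pool, 6 in EE-C and 2 in EE-DE. On the single arrays the Il1b counts were 6 and 2 for C-C, 3 and 5 for C-DE, 4 and 2 for EE-C and 0 and 2 for EE-DE, out of 10. The EE-DE count includes the array with the raised background. Tnfrsf1a was well above background at 80 of 80. Il6 was printed as 2 spots, and 1 of its 16 spot values was well above background. Il1a, as 1 spot, had 0 of 8.

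**Figure D3:**
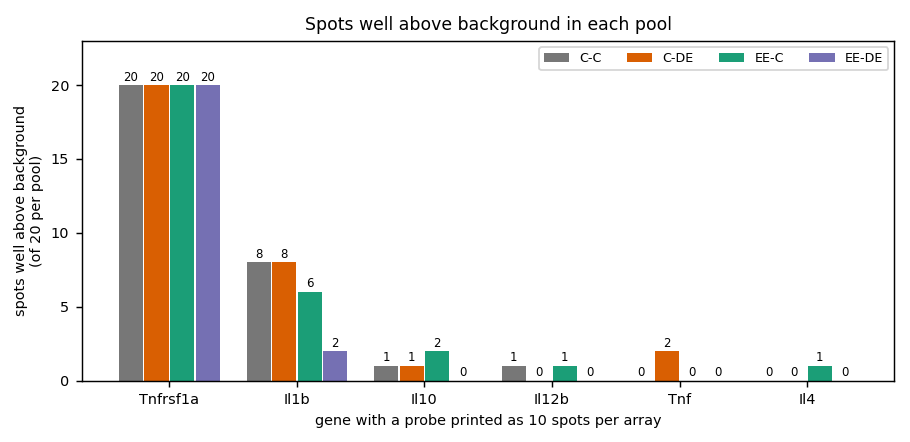
Number of spots well above background (vertical axis, of 20 per pool) for the 6 genes printed as 10 spots per array, by pool. Tnfrsf1a is at 20 in every pool, Il1b between 2 and 8, and Il10, Il12b, Tnf and Il4 between 0 and 2.

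The first EE-DE array limited what could be said of dim genes. On it 49 member probes were detected, against 60 to 65 on the others. In all, 9 probes were detected on 7 arrays, and the array that missed them was this one in every case. The median level of the members not detected on any array was −6.76 there and −8.22 to −7.98 on the other arrays. Members below background therefore tended to read higher in the EE-DE mean, though not all did, with Il17a at −0.88 in EE-DE minus EE-C. Tnfrsf1b, the inducible receptor of Tnf, was among the 9. Its levels were −3.91 and −4.13 for C-C, −4.06 and −4.34 for C-DE, −4.11 and −3.83 for EE-C and −4.53 and −4.22 for EE-DE, where the first value was not well above background.

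A few dim receptor probes were detected on both arrays of one pool and on neither array of another. For these a lower bound was set, the mean level of the brighter pool against the dim pool at the higher of its own signal and the lowest signal well above background on each array. A probe of Il12rb2, the signalling chain of the IL-12 receptor, had levels of −7.67 and −5.78 for C-C, −5.46 and −5.59 for C-DE, −6.16 and −5.43 for EE-C and −6.58 and −5.56 for EE-DE. It was at least 1.39-fold higher in C-DE than in C-C. A brighter Il12rb2 probe, detected on all 8 arrays, gave −0.21 (−0.58 to 0.17) for the same comparison, so the probes did not agree in sign. Il2ra, the alpha chain of the IL-2 receptor, read −5.62 and −6.13 for C-C, −5.62 and −6.00 for C-DE, −5.60 and −5.23 for EE-C and −5.22 and −5.26 for EE-DE, and was at least 1.31-fold higher in EE-C than in C-DE. Il2rb, its beta chain, read −5.95 and −5.76 for C-C, −6.24 and −5.96 for C-DE, −6.28 and −6.44 for EE-C and −6.95 and −5.97 for EE-DE. It was at least 1.21-fold higher in C-C than in EE-C, and against EE-DE, where it was not detected either, no bound above 1 could be set. Il7r, the receptor of the lymphocyte growth factor IL-7, read −6.47 and −5.78 for C-C, −5.62 and −6.11 for C-DE, −6.35 and −6.61 for EE-C and −5.49 and −5.89 for EE-DE, and was at least 1.2-fold higher in C-DE than in EE-C. None of these bounds reached 1.5-fold. The probes were chosen by the same values that set the bounds. The bounds leave out the spread between duplicates, and the share of all probes with such a pattern is not given. The bounds therefore describe these arrays and are no evidence of a difference between pools.

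The question of the exposure was put to the 48 member probes, of 41 genes, that were above background on all 8 arrays, without an outlier flag and with an accession. In C-DE minus C-C, 125 of 21709 probes (0.576%) lay at least 1.5-fold apart, and 0 of the 48 member probes did. In EE-DE minus EE-C it was 205 probes (0.944%) and again 0 of 48. At these shares fewer than 1 of 48 probes would be past the threshold, so a count of 0 does not set the members apart from other genes. The member probes had a median of 0.01 in C-DE minus C-C (−0.01 to 0.03) and −0.01 in EE-DE minus EE-C (−0.02 to 0.00), against −0.01 over all probes in both. In C-DE minus C-C 44 of 48 were within 0.2 of zero (91.7%, and 91.7% of all probes), and in EE-DE minus EE-C 42 were (87.5%, and 90.4% of all). Pools whose technical duplicates did not overlap were common. In C-DE minus C-C 31.2% of member probes and 40.9% of all probes had both arrays of one pool above both of the other, and in EE-DE minus EE-C 27.1% and 34.2% did. The shares were 41.7% and 37.7% in EE-C minus C-C, 31.2% and 42.2% in EE-DE minus C-DE and 39.6% and 47.1% in EE-DE minus C-C.

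No member probe passed 1.5-fold in the comparisons of rearing either. For rearing without exposure, EE-C minus C-C, 0.825% of all probes and 0 of 48 member probes lay at least 1.5-fold apart, with a member median of 0.03 (0.00 to 0.04). For rearing with exposure, EE-DE minus C-DE, the share was 0.636%, the member count 0 and the median −0.01 (−0.01 to 0.02). For both together, EE-DE minus C-C, the share was 0.815%, the count 0 and the median 0.01 (−0.03 to 0.02). The members within 0.2 of zero were 38 of 48 in EE-C minus C-C (79.2%, and 89.1% of all probes), 44 in EE-DE minus C-DE (91.7%, and 91.0%) and 39 in EE-DE minus C-C (81.2%, and 88.4%). Comparisons that share a pool are not independent of one another. The exposure effect in enriched mice minus that in standard-cage mice passed 1.5-fold for 1.48% of all probes and 0 of 48 members, with a member median of −0.03.

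**Figure D4:**
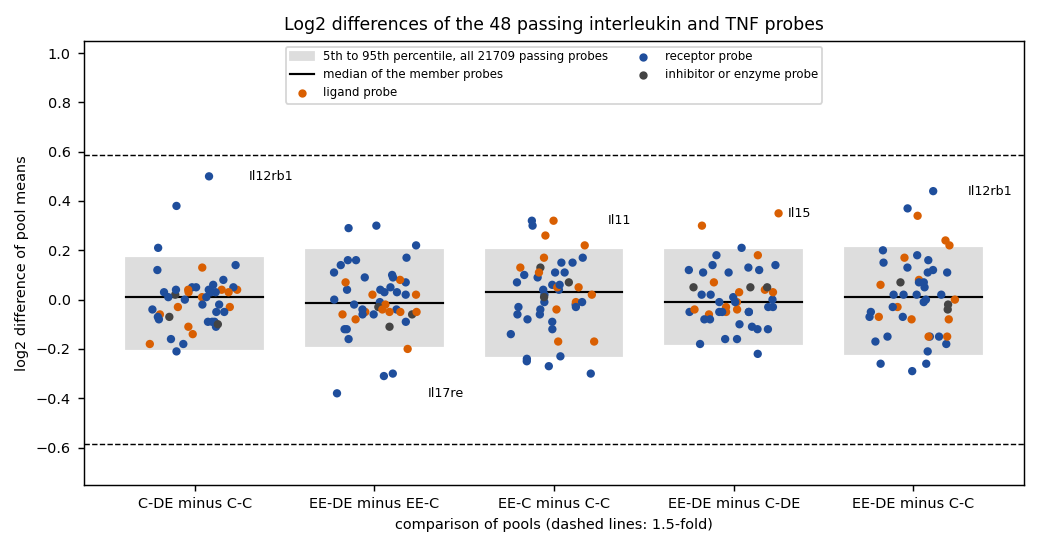
Log2 difference of pool means (vertical axis) for the 48 member probes in each of the 5 comparisons, with ligands in orange, receptors in blue and inhibitors or the enzyme in dark grey. Grey boxes span the 5th to 95th percentile of all 21709 probes, black bars are member medians and dashed lines are 1.5-fold, which no point reaches. The gene with the largest absolute difference is named in each comparison.

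The probes of the brighter genes below lie on chromosome 8 at 113265835 to 113265894 for Il34 (NM_029646), chromosome 9 at 50389761 to 50389820 for Il18 (NM_008360), chromosome 19 at 30035101 to 30035160 for Il33 (NM_001164724), chromosome 13 at 113296586 to 113296645 for Il6st (NM_010560) and chromosome 6 at 125312376 to 125312435 for Tnfrsf1a (NM_011609), all in mm9. Among the ligands, Il34 read 2.31 and 2.31 for C-C, 2.36 and 2.28 for C-DE, 2.48 and 2.40 for EE-C and 2.39 and 2.38 for EE-DE. All 4 arrays of enriched mice were above the 4 of standard-cage mice, by 0.13 (0.09 to 0.17) in EE-C minus C-C and 0.07 (0.02 to 0.11) in EE-DE minus C-DE. Such a separation, in either direction, was found for 3 of 48 member probes (6.25%) and 7.44% of all probes. Its receptors did not share this order, and the brightest Csf1r probe had 0.00 (−0.02 to 0.03) in EE-C minus C-C.

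Il18 read 1.53 and 1.58 for C-C, 1.61 and 1.57 for C-DE, 1.68 and 1.65 for EE-C and 1.63 and 1.60 for EE-DE. Its exposure differences were 0.03 (−0.02 to 0.07) and −0.05 (−0.07 to −0.02), small beside the threshold. For the inhibitor Il18bp, which binds IL-18 in solution, the levels were −1.30 and −1.30 for C-C, −1.33 and −1.23 for C-DE, −1.19 and −1.15 for EE-C and −1.12 and −1.34 for EE-DE, and the pools of exposed and unexposed mice overlapped within each rearing environment.

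The alarmin Il33 read 0.57 and 0.64 for C-C, 0.48 and 0.36 for C-DE, 0.48 and 0.40 for EE-C and 0.46 and 0.44 for EE-DE. The C-C arrays were above the other 6, and 5 of 48 member probes (10.4%) and 11.5% of all probes had the C-C arrays on one side of the others. The difference was −0.18 (−0.28 to −0.09) in C-DE minus C-C and 0.02 (−0.03 to 0.07) in EE-DE minus EE-C.

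Il17d, the IL-17 family member made in nervous tissue, read 2.94 and 2.95 for C-C, 2.95 and 2.88 for C-DE, 2.94 and 2.91 for EE-C and 2.93 and 2.82 for EE-DE at its brighter probe. The other Il17d probe stayed between −0.87 and −0.76 on all 8 arrays. Il16, a chemoattractant of CD4+ cells that is also made in neurons, read −2.53 and −3.0 for C-C, −2.71 and −2.94 for C-DE, −2.94 and −2.67 for EE-C and −2.79 and −2.91 for EE-DE. The duplicates of Il16 lay as far apart as the pools, and neither gene separated any pool from the others.

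For the IL-6 pathway, Il6st, the gp130 chain through which IL-6, IL-11 and related cytokines signal, read 1.49 and 1.5 for C-C, 1.47 and 1.54 for C-DE, 1.36 and 1.48 for EE-C and 1.45 and 1.44 for EE-DE. Its differences were 0.00 (−0.03 to 0.04) in C-DE minus C-C and 0.03 (−0.03 to 0.09) in EE-DE minus EE-C. Il6ra, the chain that binds IL-6, read 0.13 and 0.04 for C-C, 0.00 and 0.08 for C-DE, 0.05 and 0.06 for EE-C and 0.30 and 0.00 for EE-DE. Only the first EE-DE array stood above the rest. Il11ra1, which binds IL-11, read 3.18 and 3.15 for C-C, 3.18 and 3.11 for C-DE, 3.23 and 3.07 for EE-C and 3.11 and 3.08 for EE-DE, and its probe may also bind transcripts of near-identical copies of the gene. Its ligand Il11 differed by 0.04 (−0.23 to 0.32) in C-DE minus C-C and 0.02 (−0.24 to 0.27) in EE-DE minus EE-C.

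Tnfrsf1a read 1.07 and 1.01 for C-C, 1.02 and 1.01 for C-DE, 1.14 and 1.03 for EE-C and 1.09 and 1.00 for EE-DE. All 5 of its differences lay between −0.04 and 0.04, from 10 spots per array, and those of its other probe lay between 0.01 and 0.13. Il10rb, the second chain shared by the receptors of IL-10, IL-22 and the lambda interferons, read −1.47 and −1.43 for C-C, −1.37 and −1.45 for C-DE, −1.42 and −1.34 for EE-C and −1.20 and −1.35 for EE-DE. All enriched arrays of Il10rb were above both C-C arrays, a separation that 22.9% of member probes and 21.7% of all probes had in one direction or the other, and its largest difference was 0.18 (0.09 to 0.27) in EE-DE minus C-C.

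The IL-1 receptor chains are the ones through which IL-1 and IL-33 act. Il1r1, which binds IL-1, read −3.14 and −3.42 for C-C, −3.09 and −3.06 for C-DE, −3.16 and −3.28 for EE-C and −3.06 and −3.18 for EE-DE. Both C-DE arrays were above both C-C arrays, as for many probes (40.9% separated either way), by 0.21 (0.06 to 0.36), and EE-DE and EE-C overlapped at 0.10 (−0.02 to 0.21). With normexp, a correction that uses the background measured around each spot in place of the fitted surface, C-DE minus C-C was 0.13. Normexp as run here also adds an offset of 50 units to every spot. The offset by itself makes the log2 differences of dim probes smaller, so a smaller value with normexp cannot be credited to the background used. Il1rap, the shared accessory chain, read −3.37 and −3.35 for C-C, −3.51 and −3.44 for C-DE, −3.61 and −3.71 for EE-C and −3.87 and −3.39 for EE-DE. The C-C arrays of this probe were above all others, like Il33 one of the 10.4% of member probes so separated (11.5% of all), with −0.30 (−0.35 to −0.24) in EE-C minus C-C (−0.14 with normexp), but another Il1rap probe, of a transcript without a GenBank or RefSeq accession, gave −0.02 (−0.23 to 0.18). A dim Il1rap probe (NM_008364) read −5.00 and −5.73 for C-C and −5.96 and −5.64 for EE-C, lower on average in EE-C like the first probe, but the first EE-C value was not well above background.

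The neuronal relatives Il1rapl1 and Il1rapl2, which organise synapses rather than bind IL-1, differed little between the pools. Il1rapl1 read 1.28 and 1.35 for C-C, 1.45 and 1.24 for C-DE, 1.43 and 1.40 for EE-C and 1.39 and 1.55 for EE-DE at its brightest of 3 probes. The largest difference of the 3 probes was 0.18 (0.12 to 0.25), at the dimmest of them in EE-DE minus C-DE. Il1rapl2 read −1.45 and −1.43 for C-C, −1.5 and −1.55 for C-DE, −1.42 and −1.63 for EE-C and −1.62 and −1.61 for EE-DE. Its exposure differences were −0.09 (−0.13 to −0.05) and −0.09 (−0.19 to 0.02), and only the first of these kept its sign in every pairing.

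Il17ra, the chain common to the IL-17 receptors, read −2.65 and −2.69 for C-C, −2.60 and −2.69 for C-DE, −2.73 and −2.90 for EE-C and −2.93 and −2.71 for EE-DE. All 4 enriched arrays were below the 4 standard-cage arrays (7.44% of all probes were so separated either way), at −0.14 (−0.24 to −0.04) in EE-C minus C-C and −0.18 (−0.34 to −0.02) in EE-DE minus C-DE. With normexp these were −0.02 and −0.01. Il13ra1, which binds IL-13, read −3.53 and −3.65 for C-C, −3.47 and −3.42 for C-DE, −3.34 and −3.85 for EE-C and −3.82 and −3.30 for EE-DE, and the duplicates of the enriched pools were the farthest apart.

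**Figure D5:**
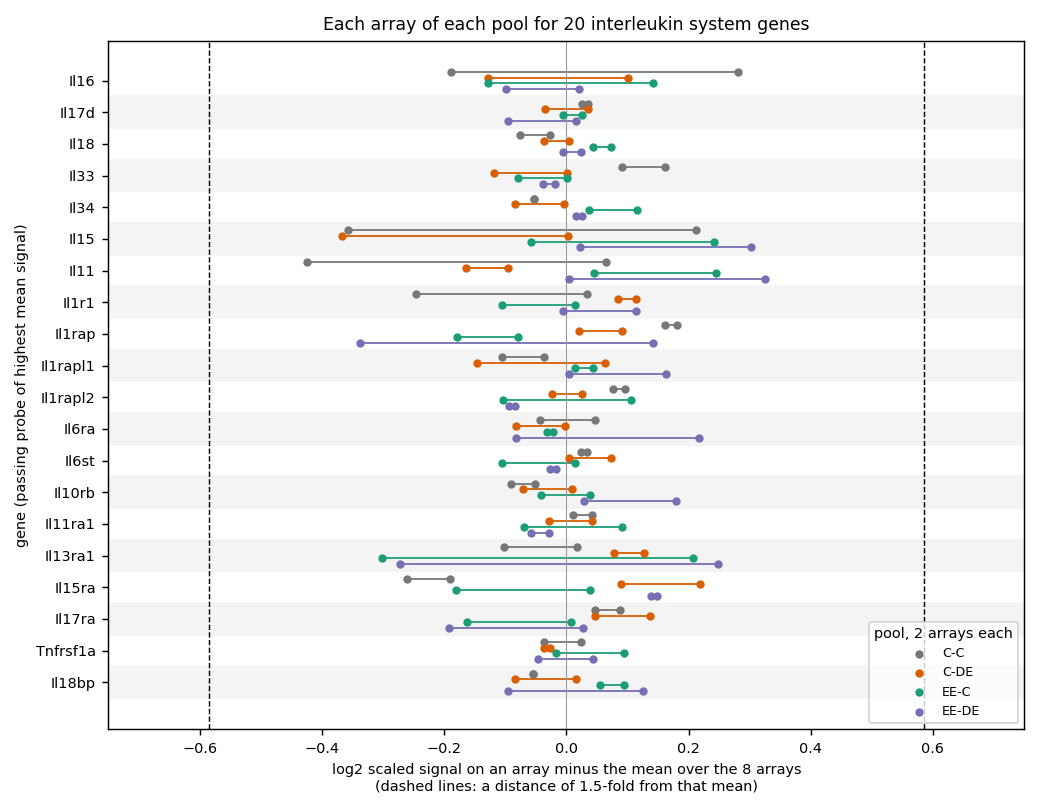
Log2 scaled signal on each array minus the mean over the 8 arrays (horizontal axis) for 20 genes, at the passing probe of highest mean signal. Each pair of joined points is the 2 arrays of a pool, and the dashed lines lie 1.5-fold from the mean. The C-C and C-DE pairs of Il15ra are apart, while all 4 pairs of Il16 overlap.

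The members farthest from zero were picked after their values were seen. Il15ra, which presents IL-15 on the cell surface, read 1.49 and 1.42 for C-C, 1.90 and 1.77 for C-DE, 1.5 and 1.72 for EE-C and 1.82 and 1.83 for EE-DE at its brighter probe (NM_133836, chromosome 2, 11655416 to 11655475, mm9). The exposed arrays were above the unexposed ones in both rearing environments, by 0.38 (0.28 to 0.48) in C-DE minus C-C and 0.22 (0.10 to 0.33) in EE-DE minus EE-C. It was the only one of 48 member probes to lie on the same side of zero in every pairing of both exposure comparisons (2.08%, against 10.1% of all probes). Its other probe (NM_008358), which lies between 11654809 and 11654868, gave 0.01 (−0.15 to 0.18) and −0.06 (−0.16 to 0.03), so the 2 probes disagreed. The mean over both probes was 0.20 in C-DE minus C-C and 0.08 in EE-DE minus EE-C.

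Il12rb1, a chain of the IL-12 and IL-23 receptors, had the largest difference among the 48 member probes. At its dimmer probe it read −3.83 and −3.75 for C-C, −3.41 and −3.17 for C-DE, −3.42 and −3.55 for EE-C and −3.59 and −3.10 for EE-DE. The C-C arrays were below all others (11.5% of all probes had them on one side), with 0.50 (0.33 to 0.66) in C-DE minus C-C and 0.14 (−0.16 to 0.45) in EE-DE minus EE-C. At its brighter probe, on the same transcript, C-DE minus C-C was 0.05 (−0.05 to 0.15), and EE-C minus C-C was −0.23 (−0.35 to −0.10) against 0.30 (0.19 to 0.41) at the dimmer one, so the 2 probes had opposite signs there. The mean over both probes was 0.27 in C-DE minus C-C and 0.04 in EE-C minus C-C, and with normexp the dimmer probe gave 0.27 and 0.09. Without the first C-DE array the dimmer probe passed 1.5-fold in C-DE minus C-C, at 0.62, with 0.751% of all probes, and without the first EE-DE array it did so in EE-DE minus C-C, at 0.68, with 0.875% of all probes. Il12b, the ligand subunit it binds, and Il23r were on no array.

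In EE-DE minus EE-C the largest values were those of Il17re, the IL-17C receptor, at −0.38 (−0.81 to 0.05), the Il12rb2 probe found on all arrays at −0.31 (−0.61 to −0.02) and the common gamma chain Il2rg at 0.30 (−0.20 to 0.79). With normexp Il17re was at −0.14 and Il2rg at 0.17. The EE-DE duplicates of Il17re, Il2rg, Il20rb and Il21r lay at least 1.5-fold apart, 4 of 48 member probes against 1.22% of all probes. Without the second EE-DE array these 4 (8.33%) would be past 1.5-fold, at −0.74, 0.62, −0.61 and 0.61, against 1.49% of all probes, and without the first 0 of 48 would, against 1.07%. In the rearing comparisons, Il11 had 0.32 (−0.02 to 0.66) in EE-C minus C-C and 0.30 (0.10 to 0.49) in EE-DE minus C-DE, Il4ra 0.32 (−0.17 to 0.81) in EE-C minus C-C and Il15 0.35 (0.02 to 0.68) in EE-DE minus C-DE. With normexp Il11 had 0.15 and 0.18, Il4ra 0.21 and Il15 0.20. Without the first C-C array Il4ra was past 1.5-fold, at 0.63 (0.88% of all probes were), and without the second EE-DE array Il20rb was in EE-DE minus C-C, at −0.73 (1.36%).

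Rearing gave 6 of 48 member probes the same side of zero in every pairing of both of its comparisons, a share of 12.5% against 12.7% of all probes. Those higher with enrichment were Il34, Il10rb, Il22 and Il28b, the array's name for the lambda interferon gene Ifnl3. Those lower were Il17ra and Il6st. With a filter on only the 4 arrays of a comparison, which was added after the data were seen, 1 of 57 member probes passed 1.5-fold in EE-C minus C-C, against 1.29% of all probes. The other comparisons had 0 of 59 in C-DE minus C-C (1.06% of all probes) and 0 of 48 in EE-DE minus EE-C (0.999%), EE-DE minus C-DE (0.672%) and EE-DE minus C-C (0.847%). The probe past it was that of Il5ra, the receptor of the eosinophil cytokine IL-5, which read −4.16 and −4.29 for C-C, −4.43 and −4.17 for C-DE, −4.96 and −4.69 for EE-C and −5.19 and −4.57 for EE-DE. Both EE-C arrays of Il5ra were below the 4 standard-cage arrays, at −0.59 (−0.79 to −0.39) in EE-C minus C-C. EE-DE was measured on 1 of its 2 arrays, since the first value was not well above background, and no difference is given for it.

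The precision followed the brightness. The SD between duplicate arrays was 0.225 for probes with a level below −3, which held 17 of the 48 member probes, 0.150 between −3 and −1, 0.103 between −1 and 1, and 0.078 above 1, where 8 of the members lay. Over the members it lay between 0.133 (C-DE) and 0.155 (C-C) in 3 pools and was 0.201 in EE-DE.

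The genes that carry and follow the cytokine signal were read from 6 lists with 95 genes, of which 82 had a passing probe (118 probes). They held 11 JAK kinases and STAT factors, 17 feedback inhibitors such as Socs3 and Nfkbia, 21 adaptors and kinases of the IL-1 and TNF receptors such as Myd88 and Traf6, 10 genes of ligand processing such as Casp1, 18 partner chains and ligands such as Lifr and Csf1r, and 18 inducible targets such as Ccl2. Neither exposure comparison had any of the 118 probes at least 1.5-fold apart, 0 in each, against 0.576% of all probes in standard cages and 0.944% with enrichment, and their medians were −0.01 in standard cages and 0.02 with enrichment. In EE-C minus C-C, EE-DE minus C-DE and EE-DE minus C-C, 1 of 118 did (0.847%, against 0.825%, 0.636% and 0.815% of all probes), a dim probe of the inflammasome gene Nlrp1a. It read −4.88 and −5.42 for C-C, −5.47 and −5.05 for C-DE, −3.21 and −4.96 for EE-C and −2.48 and −5.48 for EE-DE, so its differences rest on 1 array of each enriched pool. Another Nlrp1a probe stayed between 3.70 and 3.94. For the inducible targets (14 probes) the medians were 0.00 in C-DE minus C-C and 0.03 in EE-DE minus EE-C. They were 0.14 in EE-C minus C-C, 0.14 in EE-DE minus C-DE and 0.22 in EE-DE minus C-C, against 0.01, 0.00 and −0.01 over all probes. The other lists had medians of −0.02 to 0.08, −0.01 to 0.05 and −0.01 to 0.13 in the same comparisons. The mean level of the inducible targets was −2.29 and −2.43 for C-C and −2.40 and −2.29 for C-DE. It was −2.13 and −2.29 for EE-C and −2.22 and −2.20 for EE-DE. Their probes ran from −0.21 to 0.52 in EE-C minus C-C, and none passed 1.5-fold in any comparison.

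Some markers of other tissues differed between the pools. Of 9 probes of neutrophil and marrow genes, 6 were at least 1.5-fold lower in C-DE minus C-C (median −0.62), and 3 were without the first C-C array. Of the 6, those of Ngp and Retnlg had pairings on both sides of zero. The mean level of the list was −1.70 and −2.05 for C-C, −2.40 and −2.61 for C-DE, −0.86 and −2.14 for EE-C and −1.49 and −2.17 for EE-DE. Of 11 probes for supporting cells of the olfactory mucosa, 10 were lower in C-DE minus C-C, with a median of −1.20, while EE-DE minus EE-C had 7 higher, each with pairings on both sides of zero. Their mean level was −0.70 and −1.46 for C-C, −2.30 and −2.0 for C-DE, −0.80 and −1.98 for EE-C and −1.02 and −0.32 for EE-DE. Without the second EE-C array 0 of these probes were past 1.5-fold in EE-DE minus EE-C and the list differed by 0.12, and without the first 10 were and it differed by 1.31. Without the second EE-DE array 2 were. In EE-DE minus C-DE 10 of these 11 probes were higher and 0 lower, with a median of 1.59. None of the 10 had pairings on both sides of zero. Of the 9 neutrophil and marrow probes, 6 were higher there and 0 lower (median 0.81), 1 with pairings on both sides of zero. The shares of all probes past 1.5-fold were 0.576% in C-DE minus C-C, 0.944% in EE-DE minus EE-C and 0.636% in EE-DE minus C-DE. Of 6 bone probes, 3 were past 1.5-fold and lower in C-DE minus C-C (median −0.58), all with pairings on both sides of zero. The mean level of the bone list was 0.30 and −0.52 for C-C and −0.99 and −0.23 for C-DE, and without the first array of either pool 0 of 6 were past it. Of 9 for olfactory sensory neurons, 2 were lower in C-DE minus C-C and 2 higher in EE-DE minus EE-C, the latter 0 without the second array of EE-C or of EE-DE. The part of these tissues in the values of the interleukin genes was not tested. The microglia list, at 1.36 to 1.42 in C-C and 1.34 to 1.37 in C-DE, had 0 of 22 probes past 1.5-fold in any of the 5 comparisons.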

How the data were processed

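The authors deposited, for each array, the intensity table written by Feature Extraction 10.7.3.1 (submitters' processing notes). Per the file headers, the processed signal is the mean spot signal minus a fitted background surface, divided by a correction for multiplicative trends, with no scaling between arrays. The log2 values in the series table were made by the authors and lie around each probe's median over the arrays. After the values used here were centred likewise, 99.4% of 21709 probes lay within 0.02 of them on all arrays.

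Each processed intensity was divided by the 75th percentile of its array and put on a log2 scale. Spots with a GenBank or RefSeq accession, well above background on all 8 arrays and without outlier flags were kept and averaged by probe, which left 21709 probes (48 members). A call is 1.5-fold between pool means. RNA of each group is 1 pool on 2 technical arrays, so no p-value was computed. Arrays limit the precision by their number and background. The members and the lists were chosen with earlier results of these data known. Values on each array are given for members past 1.5-fold, for members detected on all arrays of one pool and none of another, and for 23 genes of the IL-1, IL-6, IL-10, IL-17, IL-18, IL-33, IL-34 and TNF pathways, at the passing probe of highest mean signal where they have one. Of these 23 genes, Il1a, Il1b, Il6, Il10 and Tnf are given as counts of spots well above background instead. Other members named were picked after their values were seen. Python 3.11.15 (numpy 2.4.6, pandas 2.3.3) and R 4.3.3 with limma 3.58.1 (normexp with an offset of 50, quantile) were used. Alternatives changed the background correction, scale, filters, threshold and arrays.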

Additional observations from a re-analysis of the deposited data

Results flagged for a closer look

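Among the 48 member probes, 1 moved opposite ways with exposure in the 2 rearing environments in every pairing of arrays (2.08%, against 4.28% of all probes). This was Il28b, the gene of the antiviral cytokine IL-28B, whose probe on all 8 arrays gave 0.13 (0.12 to 0.14) in C-DE minus C-C and −0.05 (−0.09 to −0.02) in EE-DE minus EE-C. The effects differed by −0.18. The difference was not tested, and both values are under 1.5-fold. Its other probe was detected on 1 array.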

How the results depend on the processing

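No paired analysis was possible because the shared numbers name the technical arrays of each pool and no result comes from a test. The count of member probes past 1.5-fold was 0 in all 5 comparisons under normexp, quantile and median scaling, the series table of the authors, linear means, no outlier filter, all noncontrol spots, gene means, a 2-fold threshold and all 4 pairings. No block of the array had duplicates more than 0.2 apart in median, so that setting changed nothing. Accepting any positive and significant signal gave, of 66 member probes, 2 in C-DE minus C-C, 4 in EE-DE minus EE-C, 4 in EE-C minus C-C, 2 in EE-DE minus C-DE, 7 in EE-DE minus C-C and 5 in the difference of exposure effects, shares of 3.03% to 10.6% against 2.28% to 4.99% of all 25090 probes. Among these were Il1b and Tnf, from those of their 10 spots with such a signal on all 8 arrays, mostly not well above background. Over all 10 spots Il1b had the opposite sign in C-DE minus C-C. Without a filter on dim probes these were 12, 25, 13, 24, 33 and 25 of 106 member probes, shares of 11.3% to 31.1% against 6.76% to 19.1% of all 32137. In EE-DE minus EE-C 23 of the 25 were higher, and without the first EE-DE array 5 were higher and 10 lower. The filter on the 4 arrays of a comparison, chosen after seeing the data, gave 1 in EE-C minus C-C. Leaving out 1 array gave 0 to 1 in C-DE minus C-C (Il12rb1, 0.62 without the first C-DE array), 0 to 4 in EE-DE minus EE-C, 0 to 1 in EE-C minus C-C (Il4ra, 0.63 without the first C-C array), 0 in EE-DE minus C-DE, 0 to 1 in EE-DE minus C-C (Il12rb1, 0.68 without the first and Il20rb, −0.73 without the second EE-DE array) and 0 to 4 in the difference of effects. The member medians were −0.01 in EE-DE minus EE-C and 0.01 in EE-DE minus C-C, against 0.02 and 0.04 with normexp. Quantile normalization gave 0.01 in EE-DE minus EE-C. With no filter on dim probes the medians were 0.04 in EE-DE minus EE-C, 0.05 in EE-DE minus C-DE, 0.09 in EE-DE minus C-C and 0.05 for the difference of effects. Leaving out 1 array moved the medians to −0.01 to 0.01 in C-DE minus C-C, −0.02 to −0.01 in EE-DE minus EE-C, 0.01 to 0.05 in EE-C minus C-C, −0.01 to 0.03 in EE-DE minus C-DE, −0.03 to 0.01 in EE-DE minus C-C and −0.06 to 0.01 for the difference of effects. For the signalling lists, 1 probe passed in EE-C minus C-C, EE-DE minus C-DE and EE-DE minus C-C. The looser signal flag gave 1 in C-DE minus C-C, 1 in EE-DE minus EE-C, 2 in EE-C minus C-C and 3 in EE-DE minus C-DE, and no dim filter gave 4, 5, 6 and 9, with 7 in EE-DE minus C-C. It was 0 with normexp in EE-C minus C-C and EE-DE minus C-DE, 0 with gene means in EE-C minus C-C, and 0 with all 4 pairings in EE-C minus C-C, EE-DE minus C-DE and EE-DE minus C-C. The filter on the arrays of a comparison gave 1 in C-DE minus C-C and 2 in EE-C minus C-C. Leaving out 1 array gave 0 to 4 in EE-DE minus EE-C, 0 to 2 in EE-C minus C-C, 0 to 1 in EE-DE minus C-DE and 0 to 3 in EE-DE minus C-C. Detected genes were 41, and 53 under the looser flag. Of 2375 values of the genes followed, 2339 moved by less than the spread over the pairings.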
